A study of Mus musculus with 6 samples.

Results

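The 33 genes described here make, sense, move, store or export sterols in mouse 3T3-L1 cells, pre-adipocytes from an embryonic fibroblast line that turn into fat cells under hormonal induction. They were taken by symbol from a fixed list and are 33 of the 37315 gene entries in the deposited tables. All 33 were found in every table. Of the list, 19 are enzymes of sterol synthesis, 6 control the transcription factor SREBP2, 4 traffic or store cholesterol and 4 belong to export and its nuclear receptors. The cells had been depleted either of METTL3, the methyltransferase that makes N6-methyladenosine on mRNA, or of FTO, a demethylase that acts on methylated RNA. There were 2 METTL3 control libraries and 2 METTL3 knockdown libraries, all sequenced as single reads, and 1 FTO control and 1 FTO knockdown library, both sequenced from paired ends. All 6 came from the same line after transient transfection, and the labels do not state the age of the cultures, the reagent, or what the control cells received. The 2 libraries of a METTL3 group carry the numbers 1 and 2, and the labels do not say what a number stands for.

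Cells make cholesterol from acetyl-CoA through mevalonate, farnesyl diphosphate, squalene and lanosterol, and the mevalonate branch also supplies the isoprenoids that anchor proteins to membranes. When sterol in the endoplasmic reticulum is scarce, the escort protein SCAP carries SREBP2 to the Golgi, where a pair of proteases releases a factor that switches on the enzymes of synthesis. INSIG proteins hold SCAP back when sterol is plentiful. Oxidised sterols activate the liver X receptors (LXRs), which switch on exporters such as ABCA1 and ABCG1.

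Promoter sequences are shown for 6 members on which the results below turn. Hmgcs1 is the member whose promoter held the classical sterol response element, Mvk and Mvd had the lowest ratios in the FTO knockdown, Sc5d had the highest fold change in the METTL3 knockdown, Soat1 had the highest ratio in the FTO knockdown, and Abca1 is the LXR-type exporter with the lowest fold change in the METTL3 knockdown. Each run gives bases upstream of the RefSeq start on GRCm38.p6, 5′ to 3′ on the strand of the gene. Capitals mark CCAAT or its reverse complement ATTGG, and in Hmgcs1 also TCACNCCAC, the core of the sterol response element. In Abca1 the capitals mark a match, on the other strand, to GGTNA and GGTCA with 5 bases between them, a relaxed form of the direct repeat that LXR dimers recognise.
Hmgcs1 (chr13:119690191-119690350, plus strand): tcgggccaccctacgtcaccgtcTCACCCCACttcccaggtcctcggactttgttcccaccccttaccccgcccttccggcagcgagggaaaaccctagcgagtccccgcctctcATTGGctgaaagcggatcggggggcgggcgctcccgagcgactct
Mvk (chr5:114444109-114444268, plus strand): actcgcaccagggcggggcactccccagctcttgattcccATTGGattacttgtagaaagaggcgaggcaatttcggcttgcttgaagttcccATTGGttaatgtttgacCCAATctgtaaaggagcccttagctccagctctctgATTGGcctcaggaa
Mvd (chr8:122443423-122443582, minus strand): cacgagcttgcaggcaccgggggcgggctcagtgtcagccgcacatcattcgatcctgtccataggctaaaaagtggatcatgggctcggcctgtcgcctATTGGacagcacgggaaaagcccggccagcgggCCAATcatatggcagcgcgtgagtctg
Sc5d (chr9:42264301-42264460, minus strand): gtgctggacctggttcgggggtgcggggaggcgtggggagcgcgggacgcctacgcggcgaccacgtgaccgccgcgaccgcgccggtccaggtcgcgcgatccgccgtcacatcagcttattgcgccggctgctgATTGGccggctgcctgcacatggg
Soat1 (chr1:156474332-156474488, minus strand): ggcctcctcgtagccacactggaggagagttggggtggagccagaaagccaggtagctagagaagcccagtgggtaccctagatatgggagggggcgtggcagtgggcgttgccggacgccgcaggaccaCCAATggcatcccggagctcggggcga
Abca1 (chr4:53159896-53160055, minus strand): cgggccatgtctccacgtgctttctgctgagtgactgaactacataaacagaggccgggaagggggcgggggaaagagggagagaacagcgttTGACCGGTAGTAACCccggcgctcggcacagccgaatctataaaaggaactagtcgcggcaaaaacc

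On the same assembly Abca1 spans 53030787 to 53159895 of chromosome 4 and Soat1 156424525 to 156474331 of chromosome 1, both on the minus strand, Mvk 114444269 to 114460591 of chromosome 5 on the plus strand and Mvd 122433601 to 122443422 of chromosome 8 on the minus strand. The printed bases lie outside annotated exons.

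The 27 members with a RefSeq promoter entry (all but Abcg1, Fdft1, Fdps, Npc1, Sqle and Stard4) were searched on both strands from 250 bases before to 50 bases after the start. CCAAT was present in 15 of the 16 enzymes with an entry (all but Acat2) and in 20 of the 27 members, against 41.1% of the 27025 genes in the table. The sterol response element core TCACNCCAC was found in 1 member, Hmgcs1, 137 bases upstream of the start, and in 1.44% of all genes. The GC box GGGCGG was present in 22 of the 27 members and in 38.2% of genes, and the E-box CACGTG in 6 of the 27 and in 8.09%. The strict direct repeat of AGGTCA with 4 bases between its copies matched no member and 0.0148% of genes. The relaxed pattern was chosen after that result was seen. It matched Abca1, 67 bases upstream, and 0.226% of genes. No overlap was found among the marked motifs in the printed runs, and a match describes letters in a window only.

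Summed counts ran from 41773967 to 44580722 in the METTL3 libraries and were 29321128 and 28348179 in the FTO libraries. Levels are given as CPM, read counts scaled to library size, which in the METTL3 libraries was adjusted by the trimmed mean of M-values (TMM) and in the FTO libraries was the total alone. The targeted transcripts were low where the labels say so. For Mettl3 the controls held 25.1 and 28.9 CPM and the METTL3 knockdowns 7.68 and 6.55 CPM, and for Fto the control held 153 CPM and the FTO knockdown 49.8 CPM. Collagens, Pdgfra, Vim and the other fibroblast markers were abundant in all 6 libraries, with a summed level of 20716 to 23806 CPM in the METTL3 libraries, 10719 CPM in the control of the FTO pair and 7360 CPM in its knockdown. Of the 6 mature adipocyte markers, Adipoq, Plin1, Cidec, Cfd and Lep were at most 0.185 CPM in any library. The sixth, the fatty acid carrier gene Fabp4, was present, with 21.96 and 21.98 CPM in controls of METTL3, 15.5 and 17.4 CPM in its knockdowns and 46.3 and 42.6 CPM in the FTO pair. Its log2 fold change with METTL3 knockdown was -0.40 (SE 0.12, edgeR adjusted p = 0.359). Of the 8 macrophage markers, Adgre1, Ptprc and Tyrobp were at most 0.0353 CPM in any library, and the summed level was 26.5 to 33.9 CPM in the METTL3 controls, 36.8 to 41.0 CPM in the METTL3 knockdowns and 23.4 and 23.1 CPM in the FTO pair. The 4 endothelial markers summed to at most 1.57 CPM in any library. Mitochondrially encoded genes took 0.605% to 0.757% of counts in the METTL3 libraries, 4.14% in the control of the FTO pair and 3.90% in its knockdown.

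Every member was detected in every library, over a wide span of levels. On the deposited RPKM scale, which divides by gene length and so allows genes to be compared, the most abundant member in the METTL3 controls was Fdps, the farnesyl diphosphate synthase, at 246 ± 36.3 RPKM (SD, n = 2). Npc2, a lysosomal carrier of cholesterol, followed at 145 ± 12.3 RPKM and Srebf2, the gene of SREBP2, at 111 ± 2.98 RPKM. Hmgcs1 at 86.8 ± 3.50 RPKM and Mvd at 84.9 ± 19.1 RPKM came next, and these 2 neighbours did not differ beyond their spread. At the low end stood Ggps1 at 2.03 ± 0.00930 RPKM, the site 2 protease gene Mbtps2 at 1.21 ± 0.185 RPKM and Abcg1 at 0.184 ± 0.0138 RPKM. Abca1, at 3.94 ± 0.427 RPKM, ranked 29 of 33. The exporters thus stood near the low end of the list, while 15 of the 19 enzymes lay between 14.7 RPKM (Lss) and 86.8 RPKM (Hmgcs1).

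**Figure D1:**
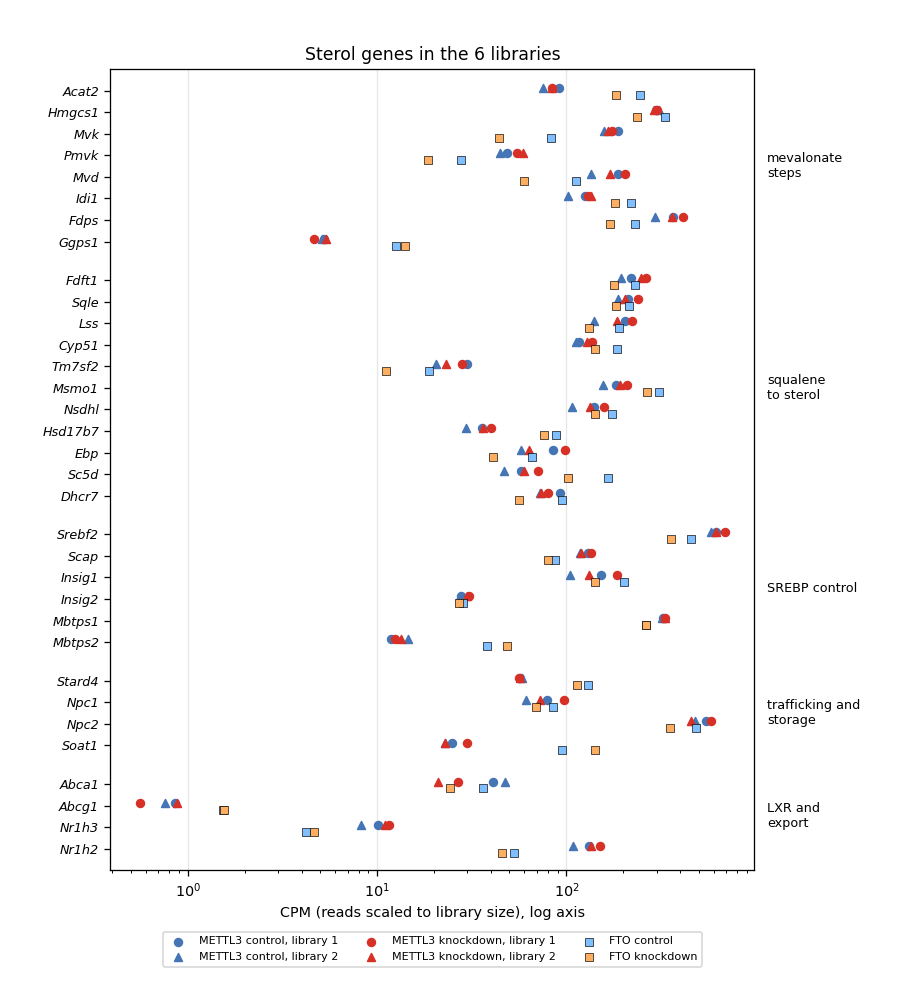
Levels of the 33 sterol genes in the 6 libraries, grouped by role; the horizontal log axis gives CPM, circles and triangles are METTL3 libraries numbered 1 and 2, and squares are the single FTO libraries. In the FTO pair the orange knockdown square lies left of the blue control square for 18 of the 19 enzymes, and Abca1 is the member whose red METTL3 knockdown points all lie left of the blue control points.

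The METTL3 knockdown was compared with its control to see whether synthesis and export moved when the writer of the methyl mark was depleted. Abca1, which loads cellular cholesterol onto apolipoproteins, stood lower in both knockdown libraries, while most enzymes stood slightly higher than in the controls. The log2 fold change was above 0 for 15 of the 19 enzymes and below 0 for 4, and their median was 0.21 against 0.00 over all genes, of which 50.5% were positive. The enzyme median ranged from 0.058 without METTL3 control library 2 to 0.36 without METTL3 control library 1. No member passed an adjusted p of 0.05 in edgeR's quasi-likelihood test, in which 0.0146% of the 13697 genes tested were called. The targeted gene Mettl3 was not called either, at a log2 fold change of -1.92 (SE 0.16, edgeR adjusted p = 0.161). The absence of a call thus does not show that a member was unchanged. At an unadjusted p under 0.05 there were 3 members, Abca1, Pmvk and Fdft1, and 1569 genes. In bulk RNA, fewer cells of a kind and less RNA per cell cannot be told apart.

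Among the exporters, Abca1 stood at 40.9 and 47.1 CPM in the controls and 26.9 and 20.98 CPM in the knockdowns. The groups did not overlap, and the lower control lay well above the higher knockdown. The log2 fold change was -0.88 (SE 0.16), a fold of 0.544, with an edgeR adjusted p of 0.237. DESeq2 gave -0.87 with an adjusted p of 0.00217 and called Abca1 alone among the members, in a run in which 1.78% of genes were called and 0.506% were called lower. Without a filter on low counts edgeR also called Abca1 (adjusted p = 0.0292), with 0.52% of 21339 genes called. Leaving out any 1 library gave log2 fold changes from -1.07 to -0.71, and edgeR called Abca1 in 1 of these 4 fits. That was the fit without METTL3 knockdown library 1 (adjusted p = 0.0209), with 0.497% of genes called, and in the other 3 the adjusted p of Abca1 ran from 0.226 to 0.863. Each such fit leaves a group with 1 library, which is assumed to vary as the libraries of the other group do. The exporter Abcg1, which passes cholesterol to lipoprotein particles, had few reads, at 0.854 and 0.759 CPM in the controls and 0.557 and 0.872 CPM in the knockdowns. Its groups overlapped, and its log2 fold change of -0.17 had an SE of 0.34, so no difference was detectable at this depth. The 2 exporters together had a median log2 fold change of -0.52, which rests on Abca1. The summed macrophage markers were higher in the METTL3 knockdowns than in the controls, the opposite direction to Abca1, and the adipocyte marker Fabp4 was lower in both knockdowns. The part of either in this result was not tested.

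The receptors above these exporters did not follow Abca1. Nr1h3, which encodes LXR alpha, stood at 10.2 and 8.21 CPM in the controls and 11.6 and 11.03 CPM in the knockdowns, a log2 fold change of 0.30 (SE 0.16). Nr1h2, which encodes LXR beta, stood at 131 and 108 CPM and 150.1 and 135 CPM, a log2 fold change of 0.26 (SE 0.13). Both receptors had knockdown values above both control values, and neither passed the edgeR test (adjusted p = 0.558 and 0.539).

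Groups failed to overlap, with every knockdown above every control, for 12 members, and with every knockdown below every control for Abca1 alone, while 20 members overlapped. With 2 libraries a group such a split is frequent, and 43.0% of the 13697 genes tested showed one, 21.0% upward and 22.0% downward. The 12 were 7 enzymes (Pmvk, Idi1, Fdft1, Cyp51, Msmo1, Hsd17b7 and Sc5d), Srebf2, Insig2, Mbtps1, Nr1h3 and Nr1h2. A 2-against-2 exact permutation test cannot go below a two-sided p of 0.333.

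Along the mevalonate steps the changes were small. Acat2, an acetoacetyl-CoA thiolase that starts the route, stood at 91.4 and 75.5 CPM in the controls and 83.8 and 84.4 CPM in the knockdowns. Hmgcs1, the next synthase, stood at 296 and 309 CPM and 301 and 291 CPM, and the mevalonate kinase gene Mvk at 187 and 158 CPM and 173 and 166 CPM. For these 3 genes the knockdown values lay within or beside the control range. Pmvk, the kinase that follows, stood at 48.6 and 44.3 CPM in the controls and 54.7 and 58.95 CPM in the knockdowns, a log2 fold change of 0.29 (SE 0.10, edgeR adjusted p = 0.399). Mvd, the decarboxylase that yields isopentenyl diphosphate, stood at 188 and 135 CPM in the controls and 203 and 170.1 CPM in the knockdowns, so its 2 controls differed from each other by more than the group means. Idi1, the isomerase of the isoprene unit, stood at 125 and 102 CPM and 131 and 134 CPM. Both knockdowns of Idi1 exceeded both controls by a small margin, and Fdps overlapped. Fdps stood at 366 and 293 CPM in the controls and 414 and 363 CPM in the knockdowns. Ggps1, which turns farnesyl into geranylgeranyl diphosphate and so leaves the sterol branch, stood at 5.24 and 5.15 CPM and 4.63 and 5.39 CPM.

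From squalene onward, 10 of 11 enzymes had a log2 fold change above 0, and the median was 0.22. Fdft1, the squalene synthase that commits carbon to sterols, stood at 219.8 and 195 CPM in the controls and 263 and 247 CPM in the knockdowns, a log2 fold change of 0.30 (SE 0.11, edgeR adjusted p = 0.402). Of its exon bases 18.3% also belong to Ctsb on the opposite strand, whose unscaled CPM was 776 and 617 in the controls and 944 and 757 in the knockdowns, and since strand use in the counting is not given in the sources used here, shared reads cannot be told apart. Sqle, the epoxidase, stood at 212 and 188 CPM in the controls and 239 and 204 CPM in the knockdowns, and Lss, the cyclase that forms lanosterol, at 203 and 141 CPM and 221 and 185 CPM. In both genes the groups overlapped. Cyp51, the lanosterol demethylase, stood at 117 and 112 CPM in the controls and 136 and 128 CPM in the knockdowns, with a gap between the groups. Tm7sf2, a sterol reductase, stood at 29.7 and 20.5 CPM and 28.1 and 23.01 CPM, with overlap.

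The enzymes that strip the extra methyl groups from the ring had log2 fold changes of similar size. Msmo1, the methyl oxidase, stood at 183 and 156 CPM in the controls and 208 and 193 CPM in the knockdowns. Nsdhl, the dehydrogenase that acts after it, stood at 139 and 107 CPM and 157 and 133 CPM, and Hsd17b7, the keto-reductase, at 35.9 and 29.4 CPM and 40.2 and 36.03 CPM. Their log2 fold changes lay between 0.22 and 0.24, each with an SE of at least 0.12. Ebp, the isomerase, stood at 84.5 and 57.4 CPM in the controls and 97.7 and 63.6 CPM in the knockdowns, with overlapping groups. Sc5d, the desaturase, had the highest log2 fold change of all members at 0.33 (SE 0.15, edgeR adjusted p = 0.480). It stood at 57.2 and 46.9 CPM in the controls and 71.1 and 59.6 CPM in the knockdowns. Dhcr7, the last reductase on one arm of the route, had the lowest log2 fold change among the enzymes at -0.10 (SE 0.15). It stood at 92.97 and 72.3 CPM and 80.1 and 73.6 CPM.

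The machinery that controls SREBP2 showed no called change in the fits without library number. Srebf2 stood at 613 and 583 CPM in the controls and 689 and 619 CPM in the knockdowns, a log2 fold change of 0.13 (SE 0.11). Insig1, itself a target of SREBP2, stood at 151 and 104 CPM and 184 and 131 CPM, a log2 fold change of 0.30 with an SE of 0.24. For Insig1 each group held 1 high and 1 low library, and the groups overlapped. Insig2 stood at 27.8 and 27.3 CPM in the controls and 30.6 and 29.9 CPM in the knockdowns, Scap at 131 and 119 CPM and 135 and 119 CPM, the site 1 protease gene Mbtps1 at 322 and 319.9 CPM and 329.9 and 332 CPM, and Mbtps2 at 11.8 and 14.5 CPM and 12.4 and 13.3 CPM. The log2 fold changes of these 4 lay between -0.03 and 0.14.

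Among the genes of trafficking and storage, Npc1, the lysosomal membrane exporter of cholesterol, stood at 78.9 and 61.2 CPM in the controls and 96.9 and 72.2 CPM in the knockdowns, and its partner Npc2 at 545 and 477 CPM and 581 and 454 CPM. Soat1, which esterifies cholesterol for storage, stood at 24.9 and 22.9 CPM and 29.7 and 22.9 CPM, and Stard4, a soluble sterol carrier, at 56.5 and 58.3 CPM and 55.98 and 57.1 CPM. All 4 overlapped between the groups.

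**Figure D2:**
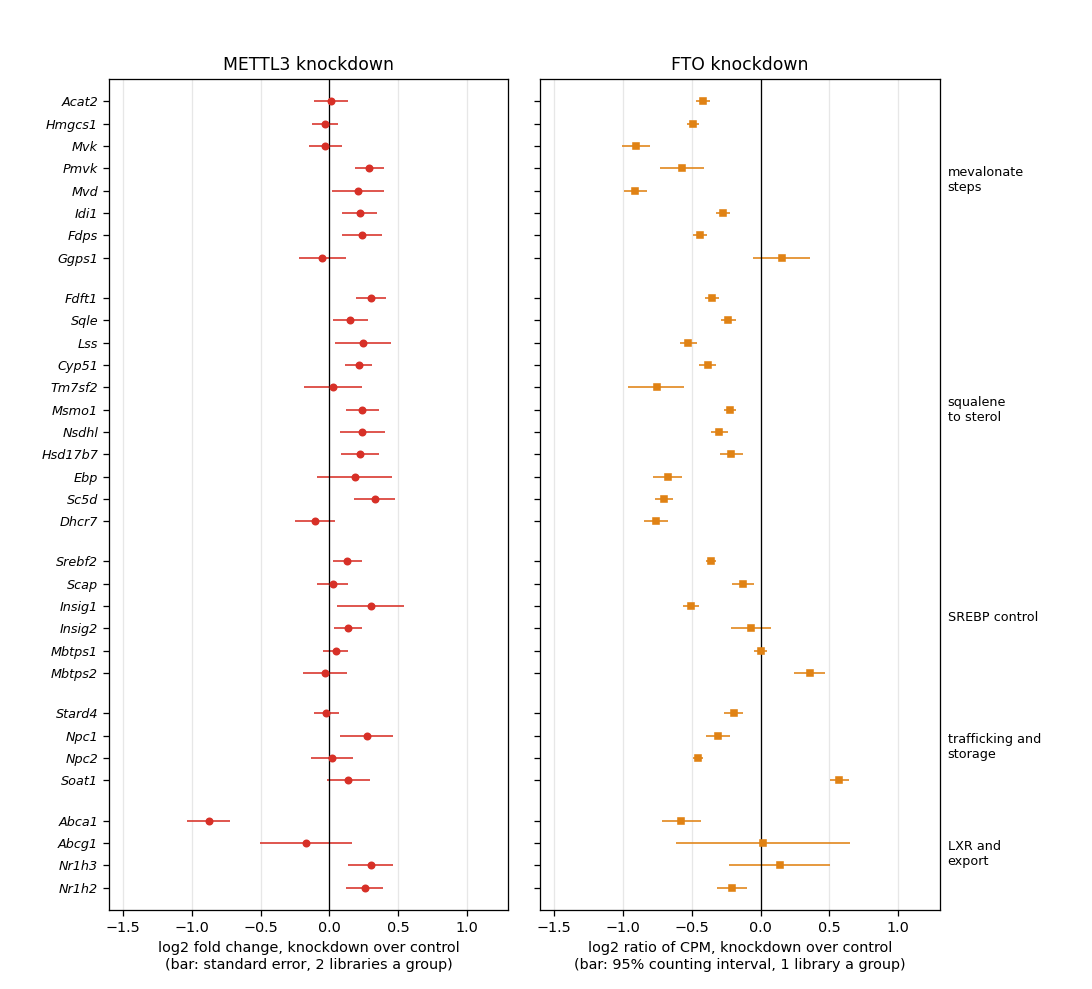
Change of the 33 sterol genes in the METTL3 knockdown (left, log2 fold change from edgeR with its standard error, 2 libraries a group) and in the FTO knockdown (right, log2 ratio of CPM with a 95% counting interval, 1 library a group). On the left 15 of 19 enzymes lie right of 0 and Abca1 lies farthest left at -0.88; on the right 18 of 19 enzymes lie left of 0 and Soat1 farthest right.

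In the FTO knockdown the enzymes of sterol synthesis were lower almost throughout. Of the 19 enzymes, 18 were lower than in the control, with a median log2 change of -0.44 against 0.02 over the 11432 genes that reached 50 reads in 1 or both libraries, of which 46.8% were lower. Summed over the 19 enzymes, 87669 reads were counted in the control and 63247 in the knockdown. Abca1 was lower as well, and Soat1 was the member with the highest ratio. The summed fibroblast markers were also lower in the FTO knockdown (7360 against 10719 CPM), and their part in these results was not tested. With 1 library a group there is no replicate check and no test between the conditions, and the intervals given cover counting error only, since reads without molecular identifiers are not independent molecules.

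No member passed the 2-fold limit, which 1.03% of the 11432 genes passed. At a 1.25-fold limit, chosen after the data were seen, 13 of the 19 enzymes and 17 of the 32 members with enough reads were lower, against 12.7% of genes, and 2 members, Soat1 and Mbtps2, were higher, against 12.8% of genes. These log2 changes were computed after adding 1 CPM to each value, which understates the change of low genes, whereas the ratios below are of CPM without it.

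The lowest ratios lay in the middle of the mevalonate steps. Mvd stood at 112 CPM in the control and 59.7 CPM in the knockdown, a ratio of 0.532 (95% interval 0.502 to 0.565). Mvk stood at 82.4 CPM and 44.02 CPM, a ratio of 0.534 (95% interval 0.499 to 0.572). These 2 genes act 2 steps apart on the same branch, and Pmvk, which acts between them, stood at 27.7 CPM and 18.6 CPM, a ratio of 0.673 (95% interval 0.602 to 0.752). Upstream, Acat2 stood at 243 CPM and 182 CPM, a ratio of 0.747 (95% interval 0.721 to 0.775), and Hmgcs1 at 331 CPM and 235 CPM, a ratio of 0.712 (95% interval 0.690 to 0.735). Acat2 shares 445 bp at 98.7% identity with a transcript of Tcp1, a chaperonin gene on the same chromosome with a ratio of 1.20. Acat2 also shares 1477 bp at 97.7% identity with Acat3, which had 11 reads in the control and 25 in the knockdown. The counts of Acat2 are uncertain to that extent. Downstream, Idi1 stood at 218 CPM and 180.4 CPM and Fdps at 229.6 CPM and 169 CPM, with ratios of 0.828 (95% interval 0.798 to 0.859) and 0.737 (95% interval 0.710 to 0.765). The pseudogene Gm13502, which matches 684 bp of Idi1 at 100% identity, had 69 and 54 reads in the FTO pair. Among pseudogenes that match Fdps, Gm5873 (1066 bp at 96.7% identity) had the most reads there, 28 and 15. Neither had more than 2 reads in a METTL3 library. Ggps1, at 12.6 CPM and 14.04 CPM, was the enzyme that was not lower, with a ratio of 1.11 (95% interval 0.963 to 1.29) whose counting interval included 1.

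All 11 enzymes from squalene onward were lower, with ratios from 0.591 for Dhcr7 to 0.863 for Hsd17b7. Dhcr7 stood at 94.7 CPM in the control and 55.9 CPM in the knockdown, a ratio of 0.591 (95% interval 0.555 to 0.629), and Tm7sf2 at 18.8 CPM and 11.1 CPM, a ratio of 0.592 (95% interval 0.514 to 0.681). Tm7sf2 shares 12.1% of its exon bases with Vps51, which had a ratio of 0.782. Sc5d stood at 165 CPM and 102 CPM, a ratio of 0.615 (95% interval 0.587 to 0.644), and Ebp at 65.4 CPM and 40.9 CPM, a ratio of 0.626 (95% interval 0.581 to 0.674). These 4 enzymes had the lowest ratios among the 11 from squalene onward. Lss stood at 190.2 CPM and 132 CPM, Cyp51 at 185 CPM and 142 CPM, and Fdft1 at 229 CPM and 179 CPM. The ratio of Fdft1 was 0.783 (95% interval 0.755 to 0.813), while its overlapping neighbour Ctsb had a ratio of 0.991. Nsdhl stood at 173 CPM and 141 CPM, Sqle at 215 CPM and 183 CPM, Msmo1 at 309 CPM and 265 CPM, and Hsd17b7 at 87.8 CPM and 75.8 CPM. For these last 4 the ratios ran from 0.813 to 0.863, and the counting interval of each lay below 1.

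The regulators did not move as 1 group. Srebf2 stood at 455 CPM in the control and 355 CPM in the knockdown, a ratio of 0.778 (95% interval 0.758 to 0.799), and Insig1 at 200.1 CPM and 141 CPM, a ratio of 0.704 (95% interval 0.676 to 0.733). Scap, at 86.8 CPM and 79.4 CPM, had a ratio of 0.915 (95% interval 0.864 to 0.969). Insig2, at 28.4 CPM and 27.1 CPM, and Mbtps1, at 262 CPM and 262 CPM, had intervals that included 1. Mbtps2 was higher, at 37.9 CPM in the control and 48.5 CPM in the knockdown, a ratio of 1.28 (95% interval 1.18 to 1.39). Of these 6 genes, Srebf2, Insig1 and Scap thus had intervals below 1 and Mbtps2 had one above 1.

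Storage and trafficking genes went different ways. Soat1 stood at 94.98 CPM in the control and 141 CPM in the knockdown, a ratio of 1.49 (95% interval 1.42 to 1.56). Npc2 stood at 482 CPM and 353 CPM, Npc1 at 85.3 CPM and 68.8 CPM, and Stard4 at 130.0 CPM and 114 CPM. Those 3 were lower, with ratios of 0.731, 0.807 and 0.873.

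On the export side, Abca1 stood at 36.1 CPM in the control and 24.2 CPM in the knockdown of FTO, a ratio of 0.671 (95% interval 0.609 to 0.739). Abcg1 had 45 reads in the control and 44 in the knockdown, under the minimum of 50, and a ratio of 1.01 (95% interval 0.652 to 1.57). Nr1h2 stood at 52.5 CPM and 45.5 CPM, a ratio of 0.866 (95% interval 0.803 to 0.933), and Nr1h3 at 4.19 CPM and 4.62 CPM, a ratio of 1.10 (95% interval 0.855 to 1.42). In the FTO pair 18 of the 19 enzymes and Abca1 thus lay on the same side of the control, and in the METTL3 comparison most enzymes and Abca1 lay on opposite sides.

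**Figure D3:**
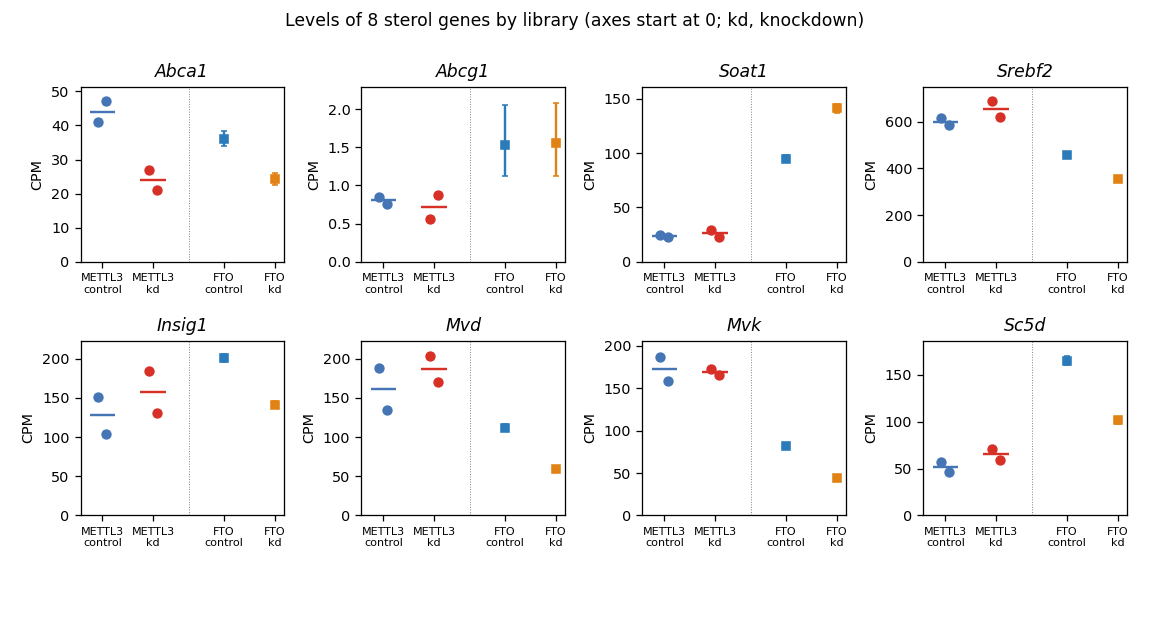
Levels of 8 sterol genes by library in CPM, with axes from 0; METTL3 points are single libraries with a bar at the group mean, and FTO squares carry 95% Poisson counting intervals. Abca1 is lower in both knockdowns, Soat1 is higher in the FTO knockdown, and Mvd, Mvk, Sc5d and Insig1 are lower in the FTO knockdown and overlap or stand slightly higher in the METTL3 knockdown.

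When the spread of the METTL3 replicates was borrowed for the FTO pair in 1 edgeR fit of all 6 libraries, no gene of 15478 passed an adjusted p of 0.05, and 1211 genes (7.82%) had an unadjusted p under 0.05. Of the 33 members, 12 had an unadjusted p under 0.05, 11 of them lower and Soat1 higher, and 9 of the 11 were enzymes. Mvk had the smallest adjusted p at 0.377, and Abca1 had 0.628. The targeted gene Fto, at a log2 change of -1.65 in this fit, was not called either. This fit assumes that the FTO libraries vary as the METTL3 libraries did, although they were sequenced in another mode.

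The difference between the knockdowns was tested in the same fit, as a contrast added after the data were seen. No gene of 15478 was called for a different change in the FTO and METTL3 experiments, with 1044 genes (6.75%) at an unadjusted p under 0.05. Among the members 10 had an unadjusted p under 0.05, all with a lower value in FTO and 9 of them enzymes, and the smallest adjusted p was 0.579 for Pmvk. The median difference over the enzymes was -0.68 on the log2 scale. For Abca1 the difference was 0.28 (SE 0.28, adjusted p = 0.876), so its lower level in the FTO pair and in the METTL3 knockdown was not shown to differ in size.

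Across library numbers, the METTL3 libraries numbered 2 had lower levels of the enzymes from squalene onward than those numbered 1, in controls and knockdowns alike. In a model with group and number, 17 of the 33 members were lower in number 2 and none was higher (edgeR, adjusted p under 0.05), in a comparison in which 29.4% of the 13697 genes were called, 14.5% lower and 14.9% higher. Of the 17, 11 were enzymes, and the others were Scap, Insig1, Npc1, Npc2, Soat1 and Nr1h2. The enzymes had a median log2 difference of -0.20 against 0.01 over all genes. The fitted difference was below 0 for 28 of the 33 members, while 51.1% of genes had one above 0. This model leaves 1 residual degree of freedom among the samples, and DESeq2 called 10 of the members, all lower, with 14.7% of its genes called and 7.87% called lower. With the number alone in the model edgeR called no member, with 7 members and 2064 genes at an unadjusted p under 0.05. With 1 library left out a model of group and number has no residual degrees of freedom, and number alone called no member in any of those 4 fits. Without the group term a left-out library also brings part of the METTL3 difference into the estimate. The METTL3 comparison above left the number out, so its calls and these come from unlike models. With the number added, that comparison called 27.1% of genes, as described with the other settings below. Of the 8 fibroblast markers 4 were called lower in number 2, among them the collagen gene Col3a1 at 4253 and 2821 CPM in controls 1 and 2 and 4360.2 and 2953 CPM in knockdowns 1 and 2, and their part in the result was not tested.

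Ebp differed most between numbers. As given above, its libraries numbered 1 stood at 84.5 CPM in the control and 97.7 CPM in the knockdown, and those numbered 2 at 57.4 CPM and 63.6 CPM. The log2 difference was -0.59 (SE 0.07, edgeR adjusted p = 8.96e-13), larger in size than its log2 fold change with METTL3 knockdown. Insig1 had -0.51 (SE 0.06, edgeR adjusted p = 1.67e-11), Tm7sf2 -0.41 (SE 0.09, adjusted p = 8.18e-05) and Npc1 -0.40 (SE 0.07, adjusted p = 6.03e-07). The remaining 13 called members had log2 differences from -0.39 for Lss to -0.16 for Scap.

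The 11 members from squalene to sterol were uniform in this respect. All 11 were lower in number 2 in the controls, with a median log2 ratio of -0.29, and all 11 in the knockdowns, with a median of -0.23. The mevalonate steps were less so, with 7 of 8 lower in the controls and 4 of 8 in the knockdowns. Mvd and Fdps were the mevalonate enzymes called, with log2 differences of -0.37 and -0.25, while Hmgcs1 had 0.01 and Pmvk -0.01.

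The exporters showed no such pattern. Abca1 was higher in number 2 than in number 1 among the controls, with a log2 ratio of 0.20, and lower among the knockdowns, with -0.36, for a fitted difference of -0.06 (SE 0.10, edgeR adjusted p = 0.713). Abcg1 had a fitted difference of 0.21 (SE 0.31). The other members with a positive fitted difference were Mbtps2 at 0.20, Ggps1 at 0.10, Stard4 at 0.04 and Hmgcs1 at 0.01, and none of them was called.

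**Figure D4:**
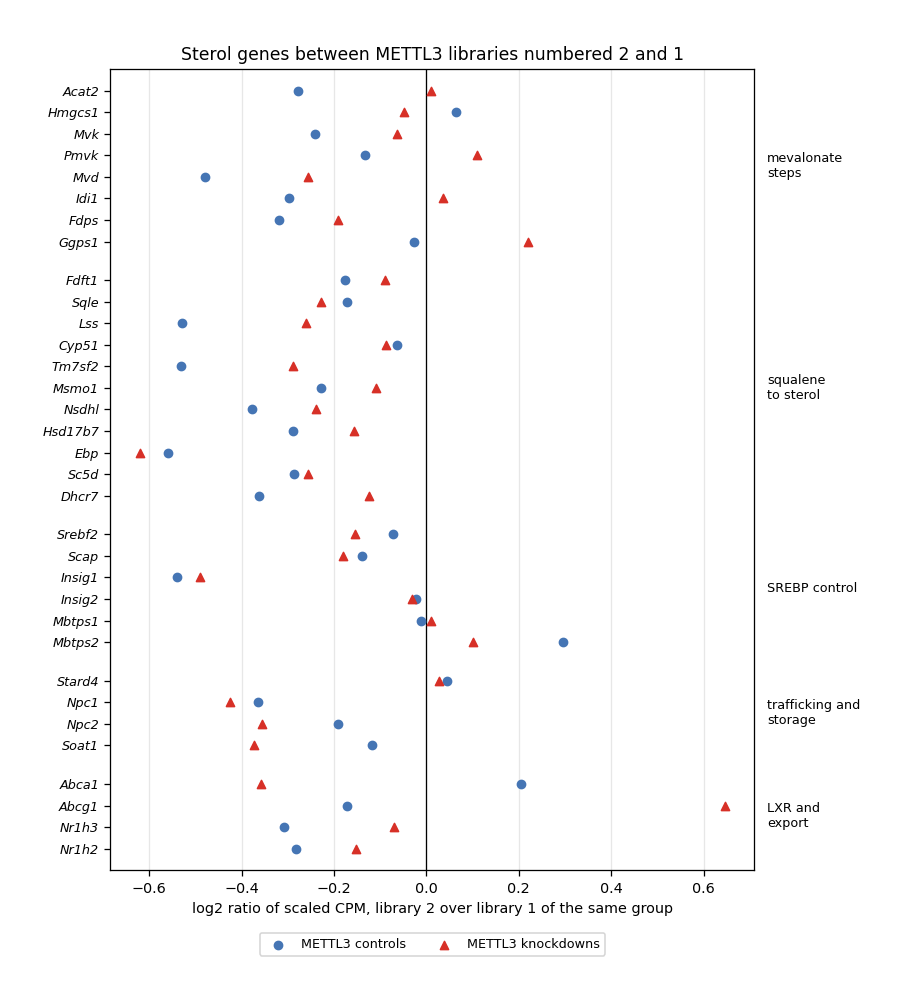
Log2 ratio of scaled CPM between METTL3 libraries numbered 2 and 1 for the 33 sterol genes, with circles for the controls and triangles for the knockdowns. All 11 enzymes from squalene to sterol lie left of 0 for both symbols, whereas Abca1 and Abcg1 have 1 symbol on each side.

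Within libraries of the same number, the comparison of knockdown with control can be read again. For number 1 the enzymes had a median log2 ratio of 0.16, with 14 of 19 above 0, and for number 2 of 0.29, with 18 of 19 above 0, against 51.2% and 50.5% of genes. Abca1 had -0.60 within number 1 and -1.17 within number 2, lower in both. Relative to the mean of the 4 libraries, the enzyme medians were 0.04 and -0.24 in the controls and 0.18 and 0.01 in the knockdowns, so the lower knockdown library and the higher control library were nearly level. The corresponding values of Abca1 were 0.34 and 0.54 in the controls and -0.26 and -0.62 in the knockdowns, with no overlap.

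Genes next to this pathway were read from lists that hold none of the 33. Over all genes in the FTO pair, 46.8% were lower, 53.2% were higher and 1.03% were past 2-fold. With METTL3 knockdown 50.5% of genes were above 0, and edgeR and limma each called 0.0146% and DESeq2 1.78%. Of 13 genes of SREBP1 and fatty acid synthesis, 12 were lower in the FTO knockdown, with a median log2 change of -0.32. The acetyl-CoA synthetase gene Acss2, at 23.02 CPM and 10.4 CPM, and the phosphatidate phosphatase gene Lpin1, at 35.9 CPM and 16.8 CPM, were past 2-fold lower, and Scd2, a fatty acid desaturase gene, stood at 1183 CPM and 867 CPM. In the METTL3 knockdown 9 of the 13 had a log2 fold change above 0, and the median was 0.04. EdgeR, DESeq2 and limma called none of the 13, with 1 at an unadjusted p under 0.05 in edgeR. Between library numbers edgeR called 4 of the 13, with Acly, Acss2 and Fads1 lower and Me1 higher, near the 29.4% called over all genes, and 9 of the 13 had a difference below 0.

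Of 9 other LXR targets and partners, 8 had enough reads, and 6 of the 8 were lower in the FTO knockdown, against 46.8% of genes. Pltp, which encodes a phospholipid transfer protein, stood at 28.6 CPM and 11.5 CPM and was past 2-fold lower, and Mylip, the ubiquitin ligase of lipoprotein receptors, at 30.1 CPM and 16.7 CPM. In the METTL3 knockdown this list had a median log2 fold change of 0.02, with Pltp at 0.42 and Mylip at 0.19, both on the other side of 0 from Abca1. EdgeR, DESeq2 and limma called none of the list, with 0 at an unadjusted p under 0.05 in edgeR. Between library numbers edgeR called 3 of the 8 genes tested, Pltp and Mylip lower and Arl4c higher, against 29.4% of all genes, and 7 of the 8 had a difference below 0.

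Of 14 other genes of sterol handling, 11 had enough reads in the FTO pair, with 6 lower, 5 higher and a median log2 change of -0.02. The lipoprotein receptor gene Vldlr stood highest, at 28.5 CPM and 45.4 CPM, and the lysosomal acid lipase gene Lipa lowest, at 102 CPM and 74.8 CPM. Among 7 genes that degrade SREBP-pathway proteins, 6 were higher, with a median of 0.19. Among 9 measured users of isoprenoids 8 were higher, with a median of 0.21, against 53.2% of all genes higher. No gene of these 3 lists with enough reads was past 2-fold in the FTO pair. EdgeR, DESeq2 and limma called none of their genes with METTL3 knockdown, and in edgeR Vldlr alone had an unadjusted p under 0.05, at a log2 fold change of 0.58 (SE 0.14). Between library numbers, where 29.4% of all genes were called, edgeR called 6 of 13 tested genes of sterol handling (5 lower, and Lbr higher), 1 of 7 degradation genes (Ufd1, lower) and 3 of 10 isoprenoid users (all higher).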

How the data were processed

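RNA from 3T3-L1 cells was sequenced in 6 libraries with a poly(dT) selection, removal of ribosomal RNA and a TruSeq v2 kit, per the labels' protocols. Each deposited table held, per the file headers, for each Ensembl gene, a read count that the authors had not normalised and an RPKM value. The authors made the RPKM values from counts, gene length and a read total. The submitters' processing notes name TopHat2 2.0.9, bedtools and mm10. How strand, reads with several matches and read pairs were treated is not given in the sources used here, and counting intervals would be too narrow if both ends of a pair were counted. Of 37315 entries, 35449 matched a GENCODE symbol and 3 repeats were left out.

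METTL3 groups were compared with edgeR 4.0.16 in R 4.3.3 (filterByExpr, TMM, robust quasi-likelihood, Benjamini-Hochberg, no replicate block, threshold 0.05, two-sided), with DESeq2 1.42.0 and limma 3.58.1 as alternatives. SE is the absolute log2 fold change over the square root of the F statistic. The model of library number added a group term, except where 1 library was left out. FTO changes used CPM with a pseudocount of 1 for genes with 50 reads in either library, with exact 95% binomial intervals on ratios and Poisson intervals on levels. Fits were tested on simulated data. A count of 0 allows up to 3 reads, or 0.0673 to 0.106 CPM. No label says whether a group's libraries came from separate cultures, so a p-value reflects the spread of these libraries alone, and that spread may be technical. All 33 members are described by role, and of each other list at most 3 genes with the largest absolute change in a comparison, besides those counted as called. The members and lists were chosen with earlier results of these data known. Promoter bases are from RefSeq on GRCm38.p6, the assembly also called mm10.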

Additional observations from a re-analysis of the deposited data

How the results depend on the processing

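Analysed again under the other settings, the median log2 fold change of the sterol enzymes with METTL3 knockdown stayed above 0 and their medians for FTO and for library number stayed below 0. With 1 library left out the METTL3 median ran from 0.058 to 0.36 and the number median, with number alone in the model, from -0.33 to -0.098. Abca1 stayed below 0 with METTL3 knockdown in all settings run. Genes called with METTL3 knockdown numbered 239 with DESeq2 and 111 without a low-count filter, each with 1 member (Abca1), against 2 genes and 0 members in the main analysis. With 1 library left out they ranged from 2 to 70 genes and 0 to 1 members, the 70 coming without METTL3 knockdown library 1. The labels give the METTL3 groups the same numbers 1 and 2, but do not say that these mark a shared culture or day, so the libraries share only a number. Same-numbered libraries deviated together (correlation 0.587 across 13697 genes, which are not replicates), and a replicate block called 3706 genes, 14.7% of the genes tested higher and 12.3% lower, and 17 members, 16 higher and Abca1 lower (edgeR adjusted p = 3.54e-07). The 16 were Fdps, Idi1, Mvd, Pmvk, Cyp51, Ebp, Fdft1, Hsd17b7, Lss, Msmo1, Nsdhl, Sc5d, Insig1, Npc1, Nr1h2 and Nr1h3. With 2 pairs the correlation and the block cannot show which library belongs to which number. The exporters' median was -0.87 at a mean of at least 1 CPM, which drops Abcg1, and -0.63 to -0.48 with 1 library left out.

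Between library numbers DESeq2 called 1782 genes and 10 members, number alone 0 and 0. Leaving out 1 library also meant dropping the group term, since group and number on 3 libraries leave no residual degrees of freedom, and so changed both choices together. It gave 0 to 204 genes and 0 to 0 members, and an exporters' median difference from -0.19 to 0.44. For FTO, the enzyme median was -0.46 with TMM factors and -0.47 in the fit with the borrowed spread. The exporters' median for FTO, which rests on Abca1 at 50 reads, was -0.27 at 10 reads, -0.39 on RPKM with a pseudocount of 1 and -0.31 with the borrowed spread. Genes past 2-fold numbered 45 with a pseudocount of 5 CPM and 60 on RPKM, and 0 were called with the borrowed spread. The causes were not tested, except that fewer genes enter where a filter or pseudocount removes low ones.

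Some signs changed. On library totals Acat2 was -0.00386 with METTL3 knockdown, and Pmvk 0.00865 and Mbtps1 0.0172 between numbers. Mbtps1 between numbers was 0.00158 without a filter, and for FTO -0.0219 with TMM factors. With number alone Abca1 was 0.00554 and Pmvk 0.00103. With 1 library left out, the log2 fold change with METTL3 knockdown crossed 0 for Abcg1 (-0.54 to 0.11), Acat2 (-0.13 to 0.15), Dhcr7 (-0.28 to 0.086), Ebp (-0.16 to 0.49), Ggps1 (-0.17 to 0.053), Lss (-0.00335 to 0.53), Mbtps2 (-0.17 to 0.12), Mvd (-0.015 to 0.47), Mvk (-0.15 to 0.095), Npc2 (-0.17 to 0.18), Scap (-0.069 to 0.11), Soat1 (-0.063 to 0.31) and Tm7sf2 (-0.22 to 0.31), and, without the group term, so that part of the METTL3 difference enters, the difference between numbers crossed 0 for Abca1 (-0.69 to 0.47), Abcg1 (-0.065 to 0.55), Cyp51 (-0.18 to 0.040), Fdft1 (-0.31 to 0.039), Hmgcs1 (-0.032 to 0.049), Idi1 (-0.33 to 0.071), Insig2 (-0.099 to 0.045), Mbtps1 (-0.032 to 0.031), Nr1h3 (-0.41 to 0.026) and Pmvk (-0.22 to 0.20). Depth limits Abcg1, at 44 or 45 reads in the FTO libraries.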

Other observations

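The controls of the METTL3 and FTO experiments differed in their sterol profile, although both are 3T3-L1 cells. On the deposited RPKM scale Soat1, the cholesterol esterification gene, was 3.29 times as high in the FTO control as in the mean of the 2 METTL3 controls. Its values were 4.47 and 4.79 RPKM in the METTL3 controls and 15.2 RPKM in the FTO control. Sc5d was 2.63 times as high, Acat2 2.42 times and Mbtps2 2.39 times. At the other end the LXR genes Nr1h2 and Nr1h3 stood at 0.364 and 0.378 times their METTL3 control mean, and Mvk at 0.395 times. Abca1 stood at 0.680 times and Srebf2 at 0.631 times. Experiment, sequencing mode and library cannot be told apart in these values, and there was 1 FTO control, so no test was made.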
